A study of Homo sapiens with 6 samples.

Results

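S100 proteins are small EF-hand proteins that bind calcium, pair into dimers and then grip target proteins, among them annexins and non-muscle myosin. Most of their genes sit in a cluster on chromosome 1q21.3, and several are markers of motile or invasive breast cancer cells. The genes described here are the 8 symbols S100A2, S100A3, S100A4, S100A6, S100A11, S100A13, S100A14 and S100A16, of 30051 genes in the count table. They were taken as a named list of symbols, with no threshold on an expression value. A further 8 S100 genes had a row in the table and are given for comparison.

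RNA was sequenced from MDA-MB-231, an established human breast cancer line that is triple-negative and claudin-low. The cells were grown with serum and treated for 24 h with the solvent DMSO or with 50 nM panobinostat, which inhibits most histone deacetylases. Each group had 3 libraries, numbered 1, 2 and 3 for DMSO and 1, 2 and 4 for panobinostat, and the series describes the conditions as independent repeats. All are 1 cell line, so the p-values measure the spread between these repeats. The series concerns the receptor HER3 in cells given panobinostat, and the comparison asks which transcripts differ under the drug.

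The libraries held between 5389638 and 15106148 counts. Panobinostat replicate 4 stood apart from the other panobinostat libraries, with a chi-square per gene of 17.6 and 11.9 against them, while the other pairs within a group had 1.23 to 1.70. Results that turn on it are given with and without it. All 7 markers of the claudin-low state were expressed. Their summed level ran from 7389 to 7510 counts per 1000000 counts (CPM) in DMSO and from 6961 to 7098 CPM in panobinostat. In the test described below, 5 of the 7 were called lower and 1 higher, with log2 fold changes from −0.91 to 0.16. Of all tested genes, 28.6% were called lower and 30.2% higher. Of the 6 leukocyte markers with a row, 4 were under 1 CPM in both groups, and so were 5 of the 6 fibroblast markers. Only 2 leukocyte markers passed the filter on low counts, of which 1 rose, by a log2 fold change of 2.21. Of the 10 keratinocyte and luminal markers with a row, 6 were under 1 CPM in both groups, and KRT5 among them had 0 counts in every library. Of the 10, 4 passed the filter on low counts, of which 1 rose and 2 fell.

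Most of the tested S100 members moved little under panobinostat. Of the 8 members, 7 passed the filter on low counts and S100A14 did not. In the test across all 13341 genes that passed (edgeR quasi-likelihood test, Benjamini-Hochberg adjusted p under 0.05), S100A11 and S100A2 fell, 0 members rose and 5 were not called. In the same comparison 58.9% of all tested genes were called, 30.2% higher and 28.6% lower. The 2 falls are 28.6% of the tested members, the share found among all genes, and the absence of rises stands against a share of 30.2%. The median log2 fold change of the 7 tested members was −0.14, against 0.003 for all tested genes. The median of its absolute size was 0.14, against 0.42. S100A2 (−0.49) and S100A3 (−0.44), both low in level, moved more than that median of all genes, with 95% intervals reaching −0.86 and −0.88. All log2 fold changes are panobinostat over DMSO and are given as estimate ± SE, and levels are CPM, with mean ± SD over n = 3 libraries.

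Without panobinostat replicate 4 the members called lower numbered 4, since S100A6 and S100A16 joined S100A11 and S100A2, and 0 rose. The share of all tested genes called was then 74.9%, with 37.2% lower and 37.7% higher. The groups did not overlap in 5 of the 7 tested members, each lower in all 3 panobinostat libraries, where 68.9% of all tested genes did not overlap, 34.1% being lower and 34.9% higher throughout. In these bulk libraries, fewer cells that express a gene and less RNA per cell cannot be told apart.

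**Figure D1:**
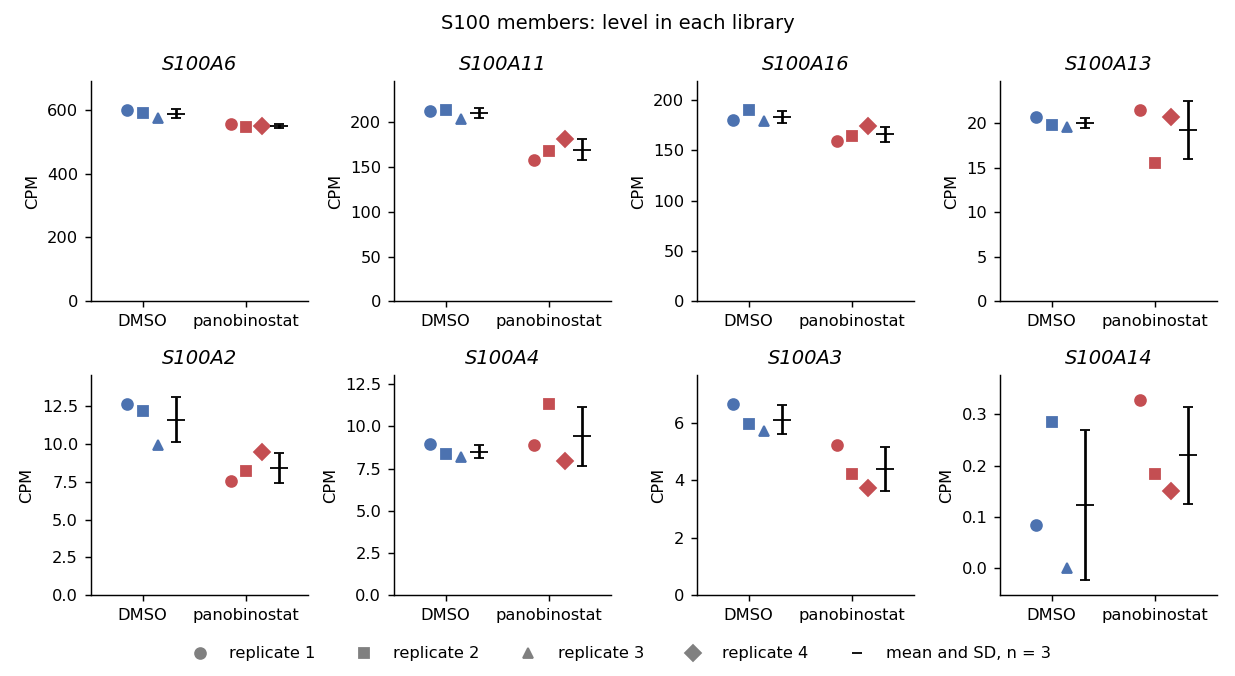
Level of each of the 8 S100 members in CPM (linear axis) in the 3 DMSO and 3 panobinostat libraries. Symbols give the replicate number, and the horizontal bar with whiskers gives the mean and SD of 3 libraries. S100A11 and S100A2 lie lower in all panobinostat libraries, while S100A4 and S100A13 overlap, and S100A14 stays under 0.4 CPM.

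S100A11 (ENSG00000163191), also called calgizzarin, forms a dimer that binds the N-terminus of annexin A1 and takes part in membrane repair and growth control. Its DMSO values were 213, 214 and 204 CPM in replicates 1, 2 and 3, while panobinostat replicates 1, 2 and 4 had 158, 168 and 182 CPM. No panobinostat library reached the lowest DMSO library, and replicate 4 was the nearest to it. The level fell from 210.3 ± 5.60 to 169 ± 11.8 CPM, a log2 fold change of −0.31 ± 0.07 (edgeR adjusted p = 0.00673, lower in 3 of 3 libraries). The 95% interval of the log2 fold change ran from −0.47 to −0.15, so the fall was smaller than 2-fold. It kept its call under all 15 alternative settings (log2 fold change −0.40 to −0.27, adjusted p up to 0.0336). RefSeq lists 10 pseudogenes of S100A11, and reads that match such copies may have been split or dropped in counting, so its level is uncertain to that extent.

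S100A2 (ENSG00000196754) encodes a mostly nuclear S100 protein of basal epithelial cells. The DMSO values were 12.7, 12.2 and 9.90 CPM and the panobinostat values 7.53, 8.24 and 9.45 CPM. DMSO replicate 3 and panobinostat replicate 4 nearly met. The level fell from 11.6 ± 1.48 to 8.41 ± 0.971 CPM (log2 fold change −0.49 ± 0.16, edgeR adjusted p = 0.0299, lower in 3 of 3 libraries), with a 95% interval from −0.86 to −0.12. This was the largest fall among the tested members, and it rests on 300 counts in DMSO and 223 in panobinostat. Leaving out replicate 1 or 2 of either group ended the call, with edgeR adjusted p = 0.0774 to 0.125. DESeq2 did not call it either (adjusted p = 0.0557). Over all its alternatives the adjusted p ran from 3.98e-05 (edgeR with a replicate block) to 0.125 (edgeR without DMSO replicate 1). TP63, which encodes p63, a transcription factor of basal epithelial cells, was too low to be tested and was looked at after its values were seen. Its pooled counts were 1 in DMSO and 25 in panobinostat. Their ratio, scaled for depth, was 23.6 (exact 95% counting interval 3.87 to 969.9).

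The promoters of S100A11 and S100A2, the members that fell, are shown with those of S100A10, which lies beside S100A11 and also fell, and of S100A6 and S100A4, which were not called. Each is the 250 bases before the most upstream RefSeq start (GRCh38.p14, minus strand, written 5′ to 3′ along the gene), at chr1:152037005-152037254 for S100A11, chr1:151993860-151994109 for S100A10, chr1:153565845-153566094 for S100A2, chr1:153535992-153536241 for S100A6 and chr1:153545807-153546056 for S100A4. Capitals mark the GC box GGGCGG, the AP-1 motif TGANTCA and the TATA motif TATAAA, each searched on both strands.
S100A11: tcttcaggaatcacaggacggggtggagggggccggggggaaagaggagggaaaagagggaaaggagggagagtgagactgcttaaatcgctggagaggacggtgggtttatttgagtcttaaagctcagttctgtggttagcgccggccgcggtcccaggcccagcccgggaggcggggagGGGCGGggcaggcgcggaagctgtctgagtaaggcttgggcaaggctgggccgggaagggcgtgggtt
S100A10: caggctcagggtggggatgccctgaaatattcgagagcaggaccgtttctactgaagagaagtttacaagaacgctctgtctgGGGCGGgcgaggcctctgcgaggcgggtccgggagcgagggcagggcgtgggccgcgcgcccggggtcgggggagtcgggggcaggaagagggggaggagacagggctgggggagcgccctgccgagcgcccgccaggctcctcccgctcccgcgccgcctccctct
S100A2: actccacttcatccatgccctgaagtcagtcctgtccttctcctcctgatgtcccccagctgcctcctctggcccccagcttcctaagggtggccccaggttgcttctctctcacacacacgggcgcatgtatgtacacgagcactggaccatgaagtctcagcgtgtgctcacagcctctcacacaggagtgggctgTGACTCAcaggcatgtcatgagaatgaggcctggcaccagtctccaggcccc
S100A6: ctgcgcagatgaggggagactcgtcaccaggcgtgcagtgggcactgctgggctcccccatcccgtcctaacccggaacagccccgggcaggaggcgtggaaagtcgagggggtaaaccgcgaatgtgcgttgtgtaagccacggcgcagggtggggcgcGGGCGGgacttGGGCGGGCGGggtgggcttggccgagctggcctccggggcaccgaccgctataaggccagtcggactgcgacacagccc
S100A4: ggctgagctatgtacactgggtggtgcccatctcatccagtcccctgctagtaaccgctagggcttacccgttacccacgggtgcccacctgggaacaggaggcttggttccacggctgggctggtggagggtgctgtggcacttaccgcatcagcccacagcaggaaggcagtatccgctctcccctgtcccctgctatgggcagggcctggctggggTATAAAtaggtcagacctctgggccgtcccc
The windows differ in the motifs they hold. S100A11 and S100A10 each hold 1 GC box, 68 and 167 bases before the start, and S100A6 holds 3, of which 2 overlap. Among 35116 promoter windows of the same length, 42.6% hold a GC box. S100A2 holds 1 AP-1 motif, 52 bases before the start, which 6.57% of the windows have, and S100A3 has 1 at 225 bases. S100A4 alone among the 8 members has the exact letters TATAAA in its most upstream window, 31 bases before the start, against 10.7% of all windows. The S100A6 and S100A14 windows hold the near match TATAAG, which was not searched for. S100A6 and S100A10 have 24 CpG dinucleotides each, S100A11 has 15, S100A4 7 and S100A2 4, and the median over all windows is 11. A match is a description of these letters and not a measured binding site. The contrasts hold for the most upstream starts only. A further RefSeq start of S100A13 has a TATA motif 29 bases before it, and the window of a further S100A2 start has no AP-1 motif. Which start these cells use was not tested.

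S100A6, or calcyclin, which binds annexins and the calcyclin-binding protein CACYBP, was the most abundant member. Its DMSO values were 599.9, 591 and 573 CPM and its panobinostat values 556, 545 and 548 CPM. All panobinostat libraries lay below all DMSO libraries, but by little. The mean was 588 ± 13.8 CPM with DMSO and 549.9 ± 5.80 CPM with the drug. The log2 fold change of −0.09 ± 0.05 was not called (edgeR adjusted p = 0.133), and its 95% interval ran from −0.21 to 0.02. It was called lower without panobinostat replicate 4, at −0.10 (edgeR adjusted p = 0.0195). An antisense transcript, BX470102.1, overlaps 2.37% of its exon bases.

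S100A16, a widely expressed member, was likewise not called with all libraries. Its DMSO values were 181, 190.5 and 179 CPM and its panobinostat values 159.9, 164 and 174 CPM. The groups did not overlap, with panobinostat replicate 4 nearest to DMSO. The mean was 183 ± 6.07 CPM with DMSO and 166 ± 7.22 CPM with the drug, a log2 fold change of −0.14 ± 0.06 (edgeR adjusted p = 0.0843). Without panobinostat replicate 4 it was called, at −0.18 (edgeR adjusted p = 0.000407).

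S100A4, also known as metastasin, binds non-muscle myosin IIA and is linked to migration and metastasis. Its DMSO values were 8.96, 8.37 and 8.20 CPM and its panobinostat values 8.90, 11.4 and 7.95 CPM. The groups overlapped, and panobinostat replicate 2 was the only library above 10 CPM. The log2 fold change was 0.12 ± 0.17 (edgeR adjusted p = 0.546), with a 95% interval from −0.26 to 0.51, and it was −0.01 without panobinostat replicate 2.

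S100A3, a cysteine-rich member best known from hair, was low. The DMSO values were 6.68, 5.96 and 5.72 CPM and the panobinostat values 5.24, 4.21 and 3.75 CPM. The groups did not overlap, yet the log2 fold change of −0.44 ± 0.19 was not called (edgeR adjusted p = 0.0753), on 158 counts in DMSO and 128 in panobinostat. Its 95% interval, which is not adjusted for the number of genes tested, ran from −0.88 to −0.0053. S100A3 was called without panobinostat replicate 1, at −0.64 (edgeR adjusted p = 0.0484).

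S100A13 assists the release of FGF1 and interleukin-1 alpha, proteins that leave cells without a signal peptide. Its DMSO values were 20.7, 19.9 and 19.6 CPM and its panobinostat values 21.5, 15.6 and 20.7 CPM. Panobinostat replicate 2 was the lowest library, and the groups overlapped. The log2 fold change was −0.04 ± 0.14 (edgeR adjusted p = 0.807), with a 95% interval from −0.36 to 0.28, and 0.07 without panobinostat replicate 2. On GENCODE release 29, 10.6% of its exon bases overlap S100A1 on the opposite strand and 24.2% a non-coding transcript, AL162258.1, on its own strand. The sources used here do not state whether counting used strand, so the S100A13 and S100A1 values are uncertain.

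S100A14, a member of epithelial cells, was near absent. It had 1, 2 and 0 counts in the DMSO libraries and 5, 1 and 1 in the panobinostat libraries. The pooled counts, scaled for depth, had a ratio of 2.20 (exact 95% counting interval 0.503 to 13.2), so no difference was detectable at this depth.

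**Figure D2:**
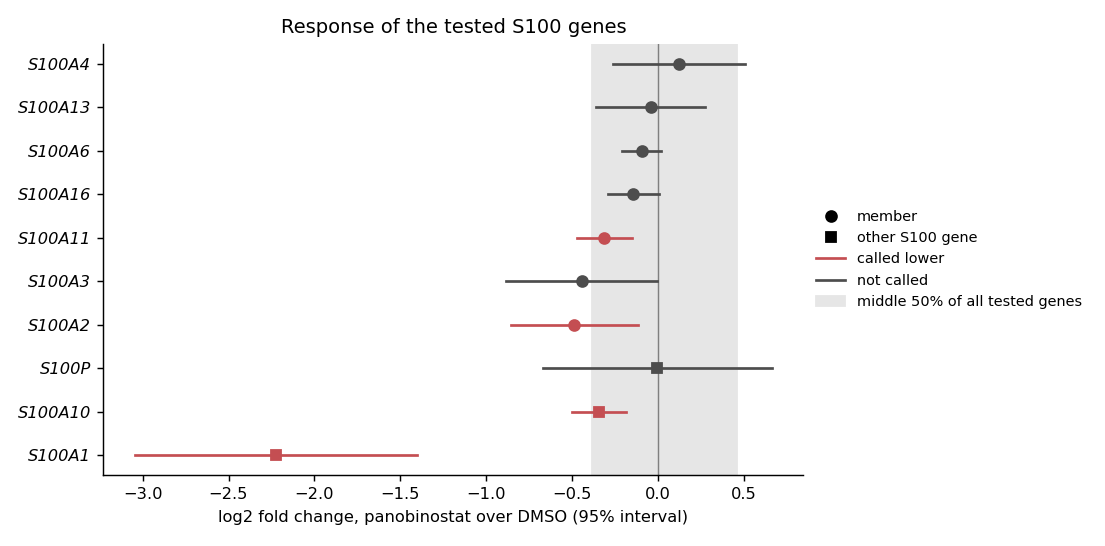
Log2 fold change of panobinostat over DMSO with its 95% interval for the 7 tested members (circles) and 3 other tested S100 genes (squares). Red marks genes called lower, dark grey those not called, and the grey band holds the middle 50% of all tested genes. Of the members, S100A2 and S100A11 are red, and S100A1 lies far below the rest at −2.22.

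Levels of different genes were compared as CPM per kilobase of merged exons in GENCODE release 29. Merged exons pool all annotated transcripts of a gene, and the annotation used for counting is not given, so the order depends on these lengths. By CPM alone in DMSO, S100A13 (20.1) stood above S100A2 (11.6), and S100A2 above S100A4 (8.51). In DMSO the order was S100A6 at 605 ± 14.2, S100A11 at 309 ± 8.24, S100A16 at 108 ± 3.57, S100A13 at 9.06 ± 0.251, S100A4 at 8.30 ± 0.387, S100A2 at 7.40 ± 0.947, S100A3 at 6.41 ± 0.519 and S100A14 at 0.0961 ± 0.114. The first 3 thus stand far above the rest. The DMSO ranges of S100A4 and S100A2 overlapped, as did those of S100A2 and S100A3, so those neighbours in the order do not differ beyond their spread. In panobinostat the means were 566 for S100A6, 249 for S100A11 and 97.6 for S100A16, then 9.17 for S100A4, 8.69 for S100A13, 5.36 for S100A2, 4.61 for S100A3 and 0.172 for S100A14. The means of S100A4 and S100A13 (SD 1.71 and 1.46) lie within their spread, and S100A13 was the higher of them in every library but panobinostat replicate 2. The 8 members together took 1042, 1042 and 999.6 CPM of the counts in DMSO and 918, 918 and 946 CPM in panobinostat.

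**Figure D3:**
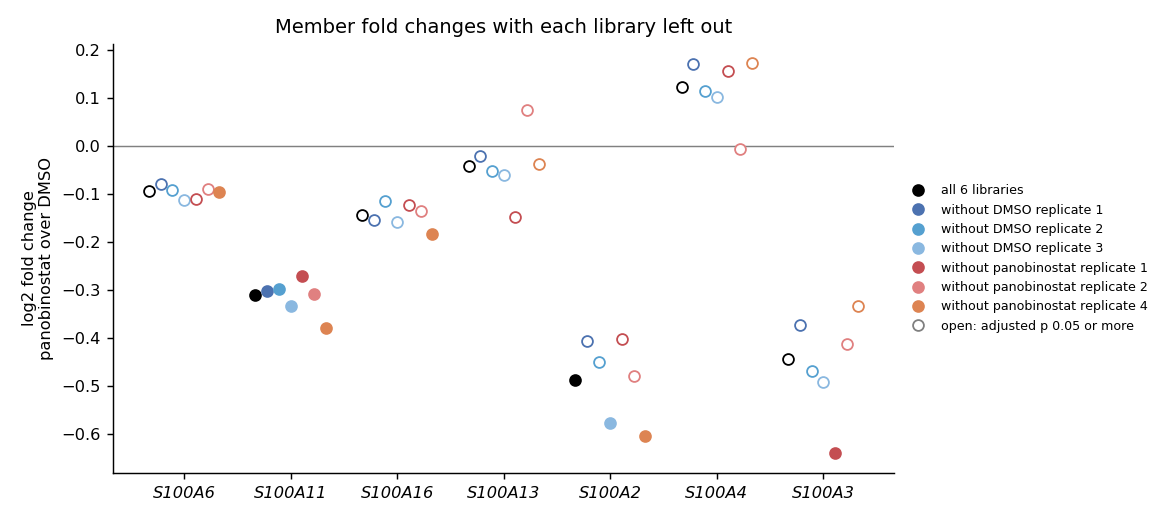
Log2 fold change of each tested member with all 6 libraries and with each library left out in turn. Filled points have an adjusted p under 0.05 and open points do not. S100A11 is filled throughout, S100A6 and S100A16 only without panobinostat replicate 4, and S100A3 only without panobinostat replicate 1.

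Of the other S100 genes, 3 passed the filter. S100A10, or p11, which binds annexin A2 and shows plasminogen to proteases at the cell surface, had 255, 245 and 255 CPM in DMSO and 187, 194 and 213 CPM in panobinostat. It fell by a log2 fold change of −0.34 ± 0.07 (edgeR adjusted p = 0.00435). S100A1, best known from heart muscle, had 1.61, 1.70 and 2.01 CPM in DMSO and 0.393, 0.183 and 0.450 CPM in panobinostat. It fell by −2.22 ± 0.36 (edgeR adjusted p = 0.00225), from 44 counts to 10, and shares exon bases with S100A13. S100P, a member induced in several carcinomas, was not called (−0.003 ± 0.29, edgeR adjusted p = 0.992).

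The remaining S100 genes with a row were too low to be tested. S100A5 had 15 counts in DMSO and 17 in panobinostat, and S100Z had 8 and 14. S100A9, a subunit of calprotectin in myeloid cells, had 0 and 4 counts, S100B, the glial member, had 0 and 3, and S100G had 1 and 0. Over a group, 3 counts are 0.117 CPM in DMSO and 0.111 CPM in panobinostat.

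All 8 members lie on chromosome 1 and on the minus strand. On GRCh38.p14, S100A11 lies at 152032506 to 152037004, and the other 7 fall within 99.8 kb, from S100A6 at 153534599 to 153535991 through S100A4 (153543621 to 153545806), S100A3 (153547329 to 153549258), S100A2 (153561108 to 153565844), S100A16 (153606883 to 153613137) and S100A14 (153614255 to 153616325) to S100A13 at 153618799 to 153634361. All are annotated as protein-coding genes. S100A10 ends 38.6 kb from S100A11, and S100A11 lies apart from the other 7 members. Along the 99.8 kb S100A2 was the only member called with all libraries. Without panobinostat replicate 4, S100A6, S100A2 and S100A16 were called there, the last 2 being neighbours among the members.

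Listed neighbours on 1q21.3 moved in both directions. Of 20 tested among the 31 with a row, 2 rose, 7 fell and 11 were not called, with a median log2 fold change of −0.11. These rises and falls are 10.0% and 35.0% of the tested neighbours, against 30.2% and 28.6% of all tested genes. FLG, the filaggrin gene of the epidermal barrier, rose from 26.9 ± 1.40 to 51.7 ± 10.4 CPM (0.95 ± 0.15), and THEM4, which lies beyond S100A10, rose by 0.44 ± 0.15 (edgeR adjusted p = 0.0329). Leaving out any 1 library other than panobinostat replicate 4 ended the THEM4 call (edgeR adjusted p = 0.0502 to 0.135). Falls were found in CREB3L4, a membrane-bound transcription factor (−0.74 ± 0.16), C1orf43 (−0.69 ± 0.10) and CHTOP, an RNA export factor next to S100A1 (−0.63 ± 0.13). Without panobinostat replicate 4, 4 neighbours rose and 8 fell (20.0% and 40.0%), against 37.7% and 37.2% of all tested genes.

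**Figure D4:**
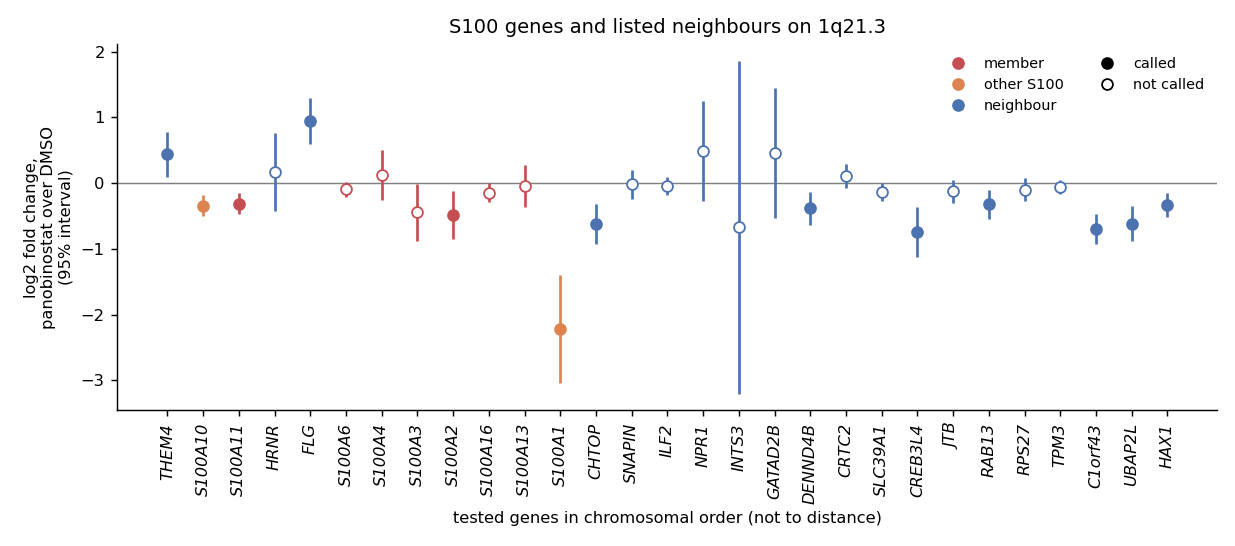
Log2 fold change of panobinostat over DMSO with its 95% interval for the tested S100 genes and listed neighbours on 1q21.3, in chromosomal order and not to distance. Colours separate members, other S100 genes and neighbours, and filled points were called. The S100 members lie between −0.49 and 0.12, while FLG lies at 0.95 and CREB3L4 at −0.74. S100A1, an S100 gene outside the members, lies lowest at −2.22.

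Genes of S100 partners and receptors moved in both directions. Of 27 tested among 30 listed, 10 rose, 10 fell and 7 were not called. Rises and falls were 37.0% each, against 30.2% and 28.6% of all tested genes. The median log2 fold change was 0.05 and the median absolute size 0.35. Without panobinostat replicate 4, 12 rose and 12 fell (44.4% each), against 37.7% and 37.2% of all tested genes. The largest rises were in IL1A, the gene of interleukin-1 alpha, from 7.01 ± 0.811 to 42.3 ± 10.4 CPM (2.61 ± 0.21), in ANXA1 (0.74 ± 0.11) and in EZR, which encodes the S100P-binding linker ezrin (0.53 ± 0.07). Falls included AHNAK, a giant scaffold held by S100A10 and annexin A2 (−0.94 ± 0.19), and MDM4, a relative of MDM2 (−0.84 ± 0.19). With no filter on low counts, AHNAK lost its call (edgeR adjusted p = 0.0748).

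A few further partners were looked at after their values were seen. FGF1, whose product is released with S100A13, fell from 31.3 ± 2.82 to 20.7 ± 2.22 CPM (−0.60 ± 0.12). IL1A, the gene of the other S100A13 cargo named above, rose. Of all tested genes, 58.9% were called. MYH9, the heavy chain of the myosin that S100A4 binds, rose from 1522 ± 50.9 to 1925 ± 116 CPM (0.34 ± 0.06). CACYBP (−0.11 ± 0.06) and SUGT1 (0.14 ± 0.08), partners of S100A6, and PPFIBP1, the S100A4 partner liprin beta 1 (−0.01 ± 0.07), were not called. CACYBP was called lower and SUGT1 higher without panobinostat replicate 4 (edgeR adjusted p = 0.000694 and 0.0460).

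ANXA1 and ANXA2, the annexin partners of S100A11 and S100A10, moved against them. ANXA1 had 692, 637 and 615 CPM in DMSO and 1201, 1150 and 887 CPM in panobinostat, and ANXA2 had 1396, 1301 and 1323 CPM in DMSO and 1921, 1822 and 1570 CPM in panobinostat. Both annexins rose, ANXA2 by 0.40 ± 0.08 (edgeR adjusted p = 0.00410), while S100A11 and S100A10 fell. Per kilobase, the ratio of S100A11 to ANXA1 was 2.06, 2.25 and 2.22 in DMSO and 0.884, 0.982 and 1.38 in panobinostat, a mean log2 change of −1.04. The ratio of S100A10 to ANXA2 was 1.05, 1.08 and 1.10 in DMSO and 0.557, 0.610 and 0.777 in panobinostat, a change of −0.74. Neither ratio overlapped between groups, and panobinostat replicate 4 was nearest to DMSO in both. The exact two-sided permutation test gave p = 0.1 for each of the 2 ratios, the smallest that 3 against 3 libraries allow, and 0.1 after Benjamini-Hochberg adjustment. The ratios were chosen after the values were seen. Both S100 genes were lower and both annexins higher in every panobinostat library. The separation of the ratios and its p were therefore fixed by those values and add no evidence to them.

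**Figure D5:**
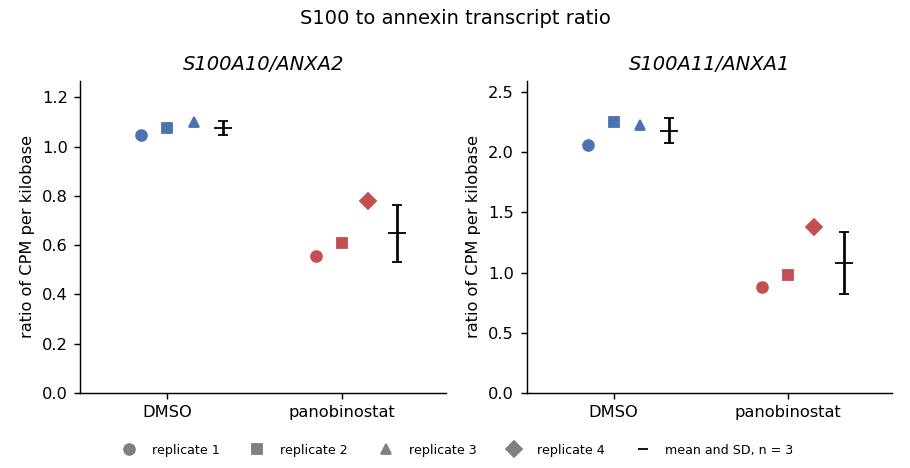
Ratio of S100A10 to ANXA2 (left) and of S100A11 to ANXA1 (right), each as CPM per kilobase of merged exons, in the 6 libraries. Symbols give the replicate number and bars the mean and SD of 3 libraries. Both ratios are lower in every panobinostat library, with replicate 4 closest to DMSO.

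Other EF-hand genes, which bind calcium through the same fold, also moved in both directions. Of 34 tested among 38 listed, 13 rose, 9 fell and 12 were not called, with a median log2 fold change of 0.04. The rises and falls were 38.2% and 26.5%, against 30.2% and 28.6% of all tested genes. Rises were largest in RCN3, a reticulocalbin of the secretory pathway (1.58 ± 0.25), GCA, the grancalcin gene (1.40 ± 0.18), and EFHD1, a mitochondrial calcium-binding protein (1.26 ± 0.30). Falls were largest in RCN1, a reticulocalbin relative of RCN3 (−1.04 ± 0.21), PEF1, a penta-EF-hand protein (−0.96 ± 0.16), and CETN3, a centrin of the centrosome (−0.52 ± 0.13). Without panobinostat replicate 4, 14 rose and 14 fell (41.2% each), against 37.7% and 37.2% of all tested genes. The RCN1 call was lost with no filter on low counts (edgeR adjusted p = 0.0650), and CETN3 was not called without DMSO replicate 2 (edgeR adjusted p = 0.0504).

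The genes whose profiles were most like those of 2 members were sought among 9781 genes of at least 10 CPM. Likeness was the root mean square difference of log2 CPM over the 6 libraries after centring on the DMSO mean. For S100A4, the member with the highest log2 fold change, they were RBIS (0.0651), TMEM219 (0.0656) and JADE3 (0.0756). With all libraries TMEM219 was not called (log2 fold change 0.11, edgeR adjusted p = 0.518). It was called higher without panobinostat replicate 4 (0.20, edgeR adjusted p = 0.0405). For S100A2, the member with the lowest, they were TMEM68 (0.0435), DGLUCY (0.0628) and MRPL20-AS1 (0.0660), an antisense transcript whose counts are uncertain without strand.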

How the data were processed

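The deposited table holds raw gene-level counts, which its name attributes to featureCounts, beside the authors’ own comparison of log2 fold changes, a score (their quotient with the SE), p-values and a mean normalised signal. Per the submitters' processing notes, FastQC was run and the build was GRCh38.p14, and per the labels' protocols libraries came from a stranded mRNA kit. The sources used here do not give the aligner, annotation or strand setting. Counts and comparison were joined by gene identifier, not by line. The deposited sum column holds 76184320 counts against 52742848 in the 6 libraries, so it covers further libraries, not analysed here.

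Counts were tested with edgeR 4.0.16 in R 4.3.3 (filterByExpr, TMM, robust quasi-likelihood, treatment only). This kept 13341 genes and left out 16710. CPM are counts over TMM-scaled totals. A check of the fit on simulated data used less spread between libraries than these data have, and no library that stood apart. It thus does not show how the test performs on data like these. Limits of 3 counts and counting intervals (exact, 95%) cover counting error only. Alternatives were other scalings, other filters, DESeq2 1.42.0, limma 3.58.1 (voom, with and without quality weights), a replicate block and leaving out each library. Named genes of a list are the up to 3 largest called rises and falls of at least 1 CPM on average, and uncalled members where 5 or fewer, and exceptions are stated. One gene that this rule names is not reported here. The members and lists were chosen with earlier results of these data known. Promoter sequences are RefSeq's, on GRCh38.p14, and all 8 members matched by symbol.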

Additional observations from a re-analysis of the deposited data

How the results depend on the processing

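Members called lower numbered 2 with all libraries, 1 with the DESeq2 Wald test, 4 with limma-voom and quality weights, 4 with a replicate block, and 1 to 4 with a library left out. Of all 13341 tested genes, 3821 were called lower with all libraries, 3493 with DESeq2, 4928 with quality weights, 4950 with the block and 2660 to 4969 with a library left out. No alternative called a member higher, and S100A11 kept its call in all 15. The log2 fold change of S100A2 was −0.49 with the DESeq2 Wald test, where it was not called. S100A6 and S100A16 were called with quality weights (−0.091 and −0.175) and with the replicate block (−0.11 and −0.19). The block compares only the 2 replicate numbers that both groups have. DMSO replicate 3 and panobinostat replicate 4 thus do not bear on its estimates, so it is not independent of leaving out panobinostat replicate 4. The block moved the falls of other EF-hand genes from 9 to 14 and of neighbours from 7 to 11, and quality weights moved the neighbour rises from 2 to 4. Whether same-numbered libraries share more than a number is not known here. Their deviations from the group means correlated at 0.0514 and 0.00807. This cannot decide it, because panobinostat replicate 4, which stood apart, shifts the panobinostat mean. With a library left out, log2 fold changes ran from −0.60 to −0.40 for S100A2, −0.64 to −0.33 for S100A3, −0.0072 to 0.17 for S100A4, −0.11 to −0.080 for S100A6, −0.15 to 0.075 for S100A13 and −0.18 to −0.12 for S100A16. Neighbour rises then numbered 1 to 4 and falls of other EF-hand genes 6 to 14. S100P, PPFIBP1 and RBIS, none of them called, changed sign. S100P was at 0.013 with upper-quartile factors, 0.027 with library size only, 0.045 with limma-voom, 0.079 with quality weights and −0.20 to 0.23 with a library left out. PPFIBP1 was at 0.0049 with upper-quartile factors, 0.020 with library size only, 0.00068 with the block and −0.027 to 0.014 with a library left out, and RBIS at −0.040 to 0.13. The cause was not tested. S100A3, S100A4 and S100A2 rest on 128 to 300 counts per group.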

Other observations

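The authors' deposited table, which rests on these and further libraries, gives S100A11 a log2 fold change of −0.29 with an adjusted p = 0.000549. S100A16 is listed in the authors' deposited table at −0.15 with an adjusted p = 0.0306, so it passes 0.05 there, and S100A2 is at −0.46 with an adjusted p = 0.0878, so it does not. S100A6 has −0.10 and an adjusted p = 0.0684 in the authors' deposited table, and S100A4 has 0.13 and 0.667.

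Beside the S100 values, COL1A1, the fibroblast marker list's one gene above 1 CPM, rose from 17.4 to 75.7 CPM, and the summed level of that list ran from 17.1 to 19.2 CPM in DMSO and from 55.3 to 90.2 CPM in panobinostat. The summed level of the keratinocyte and luminal markers ran from 85.1 to 86.6 CPM in DMSO and from 67.8 to 73.8 CPM in panobinostat. The leukocyte marker list ran from 2.78 to 4.54 CPM and from 3.84 to 5.40 CPM. Their part in the S100 results was not tested.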
